A study of Mus musculus with 8 samples.

Results

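The AP-1 family comprises the basic leucine zipper (bZIP) transcription factors of the Fos and Jun groups and their close relatives. The members were taken by gene symbol and are Fos, Fosb, Fosl1, Fosl2, Jun, Junb, Jund, Atf3 and Batf3. All 9 were found among the 26229 genes of the table, and all 9 were among the 18085 genes with an adjusted p. RNA sequencing of polyadenylated RNA compared primary cortical neurons of wild-type mice with neurons of H2BE-KO/mCherry-KI mice, 4 biological replicates each. H2BE is a variant of the core histone H2B, encoded by H2bc21, and the knockout carries an mCherry knock-in, per the labels. Neurons of both genotypes came from E16.5 embryos and were kept for 12 days in culture. Details of strain, sex and the part of the gene replaced by mCherry were not given in the sources used here, and no stimulus is named.

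AP-1 proteins bind DNA as dimers. Jun proteins pair with themselves or with Fos proteins, whereas Fos proteins need a partner such as Jun. In cortical neurons, Fos, Fosb and Junb are immediate early genes, whose transcription starts within minutes of synaptic activity and calcium entry and needs no new protein, and Jun and Atf3 are also known for the response to axon injury and stress. CREB and serum response factor, bound near the gene starts, carry the calcium and MAP kinase signals to several of these genes.

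The authors' deposited table gives a mean over all libraries and a comparison of the genotypes, so the values for single libraries were not analysed here and whether single libraries of the groups overlap was not examined. Its fold changes carry no stated direction. They were turned to knockout over wild type by the sign of the targeted gene, H2bc21, which the authors' deposited table then places at a log2 fold change of -3.45 (standard error, SE, 0.19), or 9.12% of wild type. With the opposite sign, every rise and fall below would swap. None of the 9 members lies on chromosome 3, which carries H2bc21. In the bulk RNA of these cultures, fewer cells of a type and less RNA per cell cannot be told apart.

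Stretches before the RefSeq start of 5 of the genes are shown because they hold letters of CREB-type or AP-1-type elements. The stretches below are from RefSeq (GRCm38.p6), 5′ to 3′ on the strand of the gene, and 8 of the 9 members matched a RefSeq promoter. Positions count back from the RefSeq start of the gene, with -1 as the base before it. Capitals mark the CRE core TGACG on either strand (CGTCA when it lies on the other strand), which is contained in the full CREB-binding element TGACGTCA, and in Jun the AP-1-like element TGACATCA. The 4 longer stretches run from -130 to -31, and that of Atf3 from -30 to -1. The RefSeq start used for Atf3 lies inside the gene as GENCODE places it, and its stretch overlaps an annotated Atf3 exon.
Fos, chr12:85473760-85473859, plus strand: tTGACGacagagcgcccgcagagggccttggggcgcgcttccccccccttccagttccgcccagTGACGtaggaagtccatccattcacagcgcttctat
Fosb, chr7:19310076-19310175, minus strand: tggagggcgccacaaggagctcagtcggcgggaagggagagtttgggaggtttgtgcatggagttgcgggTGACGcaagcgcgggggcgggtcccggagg
Junb, chr8:84978779-84978878, minus strand: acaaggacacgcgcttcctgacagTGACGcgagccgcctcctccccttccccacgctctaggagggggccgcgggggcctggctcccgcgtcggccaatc
Jun, chr4:95052253-95052352, minus strand: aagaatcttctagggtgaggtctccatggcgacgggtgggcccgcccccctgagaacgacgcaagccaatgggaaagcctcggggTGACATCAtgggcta
Atf3, chr1:191183334-191183363, minus strand: cctggaagctattaatagcattaCGTCAgc

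Among the 8 promoters, each of 300 bases (250 before the start and 50 after), 4 held TGACG, those of Fos, Fosb, Junb and Atf3. Of all 32851 RefSeq promoters of that length, 20.8% held it. Fos held it at -129 and -66, Fosb at -60 and Junb at -106, while in Atf3 it ended at -3 on the other strand. The full TGACGTCA was in none of the 8 and in 1.79% of all promoters. The classical AP-1 site TGACTCA was in none of the 8 and in 5.20% of all. TGACATCA was in 1 of the 8, that of Jun at -45, and in 3.62% of all. These are matches of letters within a short window and were not tested for binding.

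Transcripts of 3 members fell in the knockout, namely Fosb, Atf3 and Fosl2, and none rose past the threshold. Of the 9 members, 7 lay below 0 and 2 above, with a median log2 fold change of -0.77, against -0.02 for all tested genes. The 3 falls compare with a background of 10.9% of all tested genes that were called lower, and 21.8% were called in either direction, at an adjusted p under 0.05 from DESeq2's Wald test in the authors' deposited table. At an unadjusted p under 0.05, 5 members were lower and 0 higher, where 16.9% and 16.1% of all tested genes were. The count of 3 remained when the p-values were adjusted over all genes with a p, over genes of mean normalized count 50 or more, or after centring on the median fold change, where 6.64%, 14.9% and 9.81% of genes were called lower, and it was 2 at a threshold of 0.01, where 6.59% were. Against a t distribution with 6 degrees of freedom, or against a null widened to the spread of the Wald statistic over all genes (1.95 times that of the standard normal), 0 members were called, and of all genes 0.00553% and 0.138% were called lower. At an unadjusted p under 0.05 these 2 settings left 3 and 0 members lower and none higher, where 11.7% and 3.67% of all tested genes were lower.

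**Figure D1:**
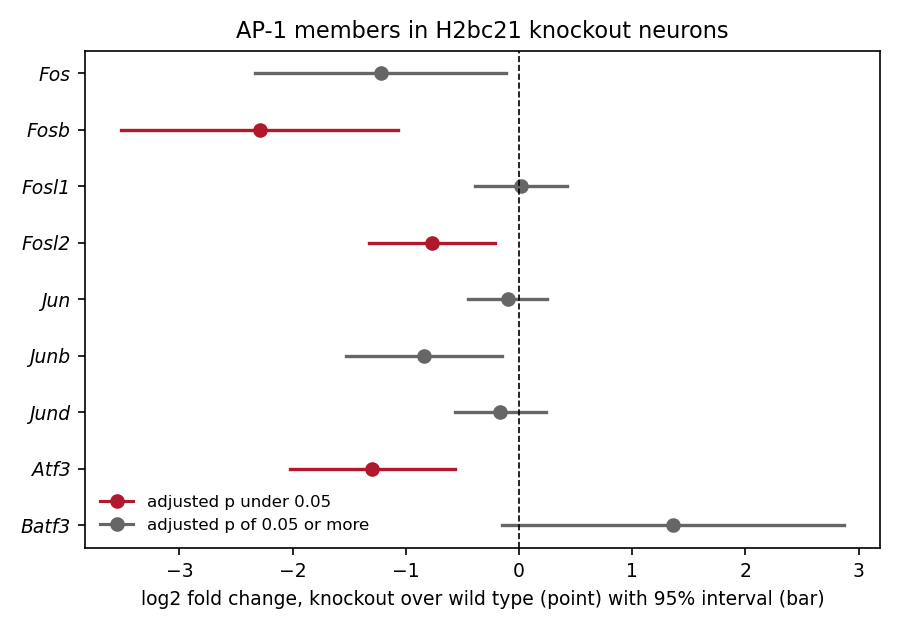
Log2 fold change of each AP-1 member, knockout over wild type, as a point with its 95% interval as a bar, with members past an adjusted p of 0.05 in red and the others in grey. Fosb lies farthest below 0 at -2.29, Atf3 and Fosl2 lie at -1.29 and -0.77, and the intervals of Fosl1, Jun, Jund and Batf3 cross 0.

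Fosb encodes a Fos protein whose shortened splice form, ΔFosB, is known to persist in neurons after repeated activity. The gene (ENSMUSG00000003545) lies on the minus strand at chr7:19302696-19310051 in GRCm38, the assembly that mm10 names. Its mean normalized count, that is, counts scaled for library size and averaged over all 8 libraries, was 2056. In the authors' deposited table its log2 fold change was -2.29 (SE 0.62, 95% interval -3.51 to -1.06, adjusted p = 0.00254 by DESeq2's Wald test). The knockout level was therefore 20.5% of wild type, with an interval from 8.76% to 47.8%. A mean and a fold change together imply group levels, which were 3414 normalized counts in wild type and 698 in the knockout. The splice forms were not separated in these gene-level values.

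Atf3 encodes a factor with low basal expression that is known to be induced by cellular stress and axon injury and that pairs with Jun proteins. It lies on the minus strand at chr1:191170296-191218039. The authors' deposited table gave a mean normalized count of 546 and a log2 fold change of -1.29 with an SE of 0.37 (95% interval -2.02 to -0.57, adjusted p = 0.00427). The implied levels were 776 normalized counts in wild type and 316 in the knockout, or 2.45-fold lower. No other annotated gene shared exon bases with Atf3.

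Fosl2 encodes Fra-2, a Fos-related protein that appears later and lasts longer than Fos after stimulation. It lies on the plus strand at chr5:32135801-32157842 and had the highest mean normalized count of the 9, 12525, spread over 9680 exon bases. Its log2 fold change in the authors' deposited table was -0.77 (SE 0.28, 95% interval -1.33 to -0.21, adjusted p = 0.0342). That is 58.6% of the wild-type level, from an implied 15795 normalized counts to 9256. It was the smallest of the 3 falls.

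Fos and Junb also lay below 0 but did not pass. Fos, the prototype immediate early gene, lies on the plus strand at chr12:85473890-85477273. At a mean normalized count of 7750, the authors' deposited table put it at a log2 fold change of -1.22 with an SE of 0.57 (95% interval -2.34 to -0.11, adjusted p = 0.108). The implied levels were 10853 normalized counts in wild type and 4648 in the knockout. Its point estimate is close to that of Atf3, and its SE is larger. Junb, an activity-induced Jun protein that activates many promoters less strongly than Jun does, lies on the minus strand at chr8:84974484-84978718. Its log2 fold change was -0.84 in the authors' deposited table (SE 0.35, 95% interval -1.53 to -0.15, adjusted p = 0.0705), with implied levels of 1848 and 1034 normalized counts in wild type and knockout. Junb thus had a larger point estimate than Fosl2, which passed.

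Jun, Jund and Fosl1 had point estimates near 0 and narrower intervals. Jun, the founding Jun protein and a target of the JNK kinases, lies as a single exon on the minus strand at chr4:95049034-95052222. It was at -0.10 (SE 0.18, 95% interval -0.45 to 0.25, adjusted p = 0.746) in the authors' deposited table, at a mean normalized count of 3215. Jund, the constitutively expressed Jun protein, lies as a single exon on the plus strand at chr8:70698949-70700616. With a mean of 1648, it was at -0.17 (SE 0.20, 95% interval -0.57 to 0.23, adjusted p = 0.62) in the authors' deposited table. Fosl1, which encodes Fra-1 and is better known from fibroblasts and tumours, lies on the plus strand at chr19:5447547-5455946. The authors' deposited table gave it a mean of 153 and a log2 fold change of 0.02 with an SE of 0.21 (95% interval -0.39 to 0.42, adjusted p = 0.968). The lower ends of these intervals are knockout levels of 67.5% of wild type for Jund, 73.3% for Jun and 76.3% for Fosl1.

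Batf3, a bZIP factor best known from dendritic cells, was scarcely expressed. It lies on the plus strand at chr1:191097847-191108945, 61.4 kb from Atf3. Its mean normalized count was 11.1 and its log2 fold change 1.36 in the authors' deposited table (SE 0.77, 95% interval -0.15 to 2.87, adjusted p = 0.207). The implied levels were 6.22 normalized counts in wild type and 15.9 in the knockout. This interval runs from 0.90-fold to 7.29-fold, so that no direction can be given.

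Per length, Fos was the most abundant member, and the order of the implied levels was not the same in both genotypes. Implied levels per kilobase (kb) of exon were given no error, and neighbours in the order were not tested. The length is the union of the exons of all annotated transcripts, which can exceed any 1 transcript. It was 6243 bases over 7 transcripts for Fosb and 3189 bases over 1 transcript for Jun. The order between genes depends on this choice of length. In wild type, Fos stood at 4614 normalized counts per kb, followed by Fosl2 at 1632, Jund at 1045, Jun at 1043, Junb at 803, Fosb at 547, Atf3 at 360, Fosl1 at 74.6 and Batf3 at 3.89. Jund and Jun were nearly level there. In the knockout the order began with Fos at 1976, Jun at 973, Fosl2 at 956 and Jund at 931 normalized counts per kb, and these last 3 lay close together. Junb at 449, Atf3 at 147, Fosb at 112, Fosl1 at 75.5 and Batf3 at 9.97 followed. In implied counts not divided by length, knockout Fosb lay above Atf3 (698 against 316) and Fosl2 above Jun (9256 against 3104). On this scale the mean over all libraries placed Fos above 97.5% of the tested genes with an annotated length, Fosl2 above 91.9%, and Batf3 above 18.4%.

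**Figure D2:**
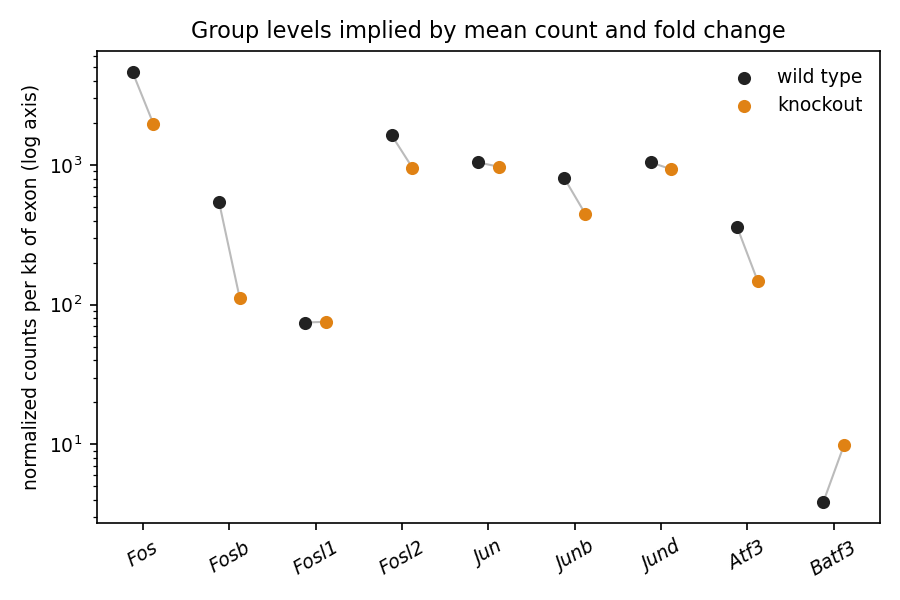
Levels of each AP-1 member in wild type (black) and knockout (orange) neurons, in normalized counts per kb of exon on a log axis, as implied by the mean count and the fold change, with a line joining each pair and no error bars. Fosb drops from 547 to 112, below Atf3 at 147, an order that depends on the exon length used. The points of Jun, Jund and Fosl1 lie almost level.

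The same levels give transcript sums for the Fos and Jun groups, which are not measures of proteins or of dimers. Summed per kb, the 4 Fos genes went from 6867 normalized counts in wild type to 3120 in the knockout, or 45.4%. The sum over the 3 Jun genes went from 2891 to 2354, or 81.4%. The Fos group thus made up 67.8% of the summed level of all 9 members in wild type and 55.4% in the knockout, and the Jun group 28.6% and 41.8%. Fos itself supplied 67.2% of the wild-type Fos group, so these sums rest mostly on a gene that did not pass the test. Within the Jun group, the share of Junb was 27.8% in wild type and 19.1% in the knockout. These sums carry no test.

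The members differed in how precisely they were measured, with 5 of them far less precise than other genes of their level. Each SE was set beside the median SE of tested genes whose mean normalized count was within 1.5-fold. The SE of Fosb was 4.90 times that median and that of Fos 4.56 times, larger than in 99.9% and 99.7% of those genes. Junb followed at 2.62 times, Fosl2 at 2.32 and Atf3 at 2.21. Jund at 1.55, Jun at 1.43 and Batf3 at 1.09 were closer to genes of their level, and Fosl1 lay below it at 0.79 times. If an SE is read as spread between replicates, with counting noise removed and libraries of equal depth, it implies a coefficient of variation. This was 61.2% for Fosb and 55.6% for Fos, compared with medians of 12.3% and 12.1% for genes of like count. It was 36.0% for Atf3, 34.4% for Junb, 27.8% for Fosl2, 19.9% for Jund and 17.4% for Jun.

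**Figure D3:**
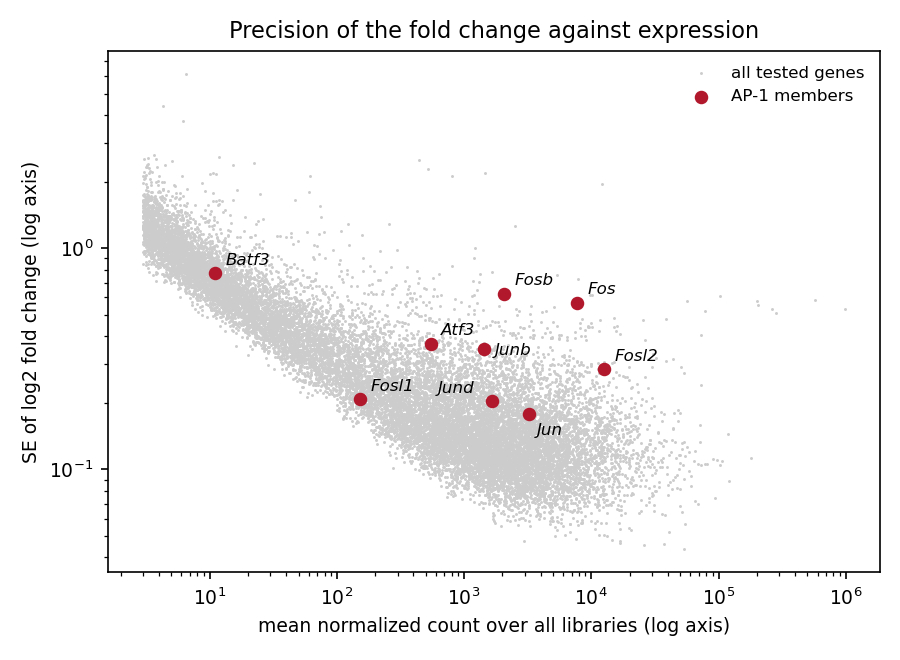
SE of the log2 fold change against mean normalized count over all libraries, both on log axes, for all tested genes (grey) and the AP-1 members (red). Fosb and Fos sit far above the bulk of genes of their count, with SEs of 0.62 and 0.57, while Jun, Jund and Fosl1 lie within it.

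This spread set what could be called. With it, a log2 fold change of at least 1.44 in size was needed for Fos to pass, 1.59 for Fosb and 0.90 for Junb, compared with 0.45 for Jun and 0.52 for Jund. Fosb exceeded its limit at -2.29, and Fos did not at -1.22. The 5 members with the widest spread for their level were those with the largest falls in point estimate. The difference between members that fell and members that did not was not tested. Such a test needs the values of single libraries, which the authors' deposited table does not give.

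Genes on the other strand overlap 4 members, which would limit their values if counting ignored strand. How counting treated strand was not given in the sources used here, although the library kit keeps strand, per the labels. Of the exon bases of Fosl1, 57.2% are shared with Ccdc85b on the other strand, which the authors' deposited table puts at a log2 fold change of -0.23 with an SE of 0.34 (adjusted p = 0.69) at a mean of 276. Jund shares 52.6% with the antisense gene Gm11175, for which the authors' deposited table gives no value. Junb shares 7.52% with Prdx2, an abundant peroxiredoxin gene, at -0.03 (SE 0.09, adjusted p = 0.877) and a mean of 15443 in the authors' deposited table. Jun shares 7.28% with its antisense gene Junos, at -0.80 (SE 0.54, adjusted p = 0.308) in the authors' deposited table. Fosl1 and Jund have the largest shared parts, and whether shared reads entered their values was not tested.

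Other bZIP genes, listed here as bZIP partners, moved in both directions. Whether each of them pairs with AP-1 proteins was not examined. Of 21 tested, 6 fell and 2 rose (28.6% and 9.52%), with a median of 0.08, against 10.9% and 11% of all tested genes. Maf, a large Maf protein that is also a marker of developing interneurons, fell to -1.42 (SE 0.43, adjusted p = 0.00742), per the authors' deposited table. Ddit3, which encodes the stress factor CHOP, fell to -0.75 (SE 0.16) there, and Nfe2l1, a regulator of proteasome genes, to -0.22 (SE 0.08, adjusted p = 0.031). Nfe2l3 rose to 1.93 (SE 0.37) and the repressor Bach2 to 0.70 (SE 0.19) in the authors' deposited table. Jdp2, an AP-1 repressor gene that neighbours Fos on chromosome 12, was at 0.08 (SE 0.14, adjusted p = 0.753) and was picked for its position after its value was seen.

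Upstream of AP-1, 3 of 29 tested genes of the MAP kinase cascade rose and 2 fell, with a median of -0.08. These shares, 10.3% and 6.90%, were close to the 11% and 10.9% of all tested genes. In the authors' deposited table Mapk11, a p38 kinase gene, rose to 0.52 (SE 0.14, adjusted p = 0.00216), Map2k4, a JNK-activating kinase gene, to 0.20 (SE 0.08, adjusted p = 0.0439) and Mapk7, which encodes ERK5, to 0.34 (SE 0.13, adjusted p = 0.0493). Rps6ka2, an RSK kinase gene, fell to -0.41 (SE 0.15, adjusted p = 0.0342) and Map3k11 to -0.63 (SE 0.24, adjusted p = 0.0486) there. These counts are of transcripts and say nothing of kinase activity.

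Among factors that act on AP-1 promoters, 2 of 18 fell and 2 rose, or 11.1% each way, close to the share of all tested genes, with a median of -0.01. The authors' deposited table placed Stat3 at -0.75 (SE 0.14, adjusted p = 4.4e-06) and Crem, a CREB relative whose ICER products repress CRE-driven genes and are themselves induced by cyclic AMP, at -1.25 (SE 0.33, adjusted p = 0.00166). Mef2a rose to 0.46 (SE 0.12) and the CREB coactivator gene Crtc1 to 0.36 (SE 0.13, adjusted p = 0.0324). Creb1 itself was at 0.15 (SE 0.12, adjusted p = 0.41) and Srf at 0.21 (SE 0.13, adjusted p = 0.235), both chosen for their role after their values were seen. None of 6 genes of Jun and Fos protein turnover was called by DESeq2's Wald test, and 0 passed at an unadjusted p under 0.05 by the deposited p, by the t distribution or by the widened null. Those of highest mean count, Cul1 and the ubiquitin ligase gene Fbxw7, were at 0.08 (SE 0.09) and 0.07 (SE 0.14) in the authors' deposited table.

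Genes described as AP-1 targets in some cell type were lower more often than higher. Of 28 tested, 12 fell and 2 rose (42.9% and 7.14%, against 10.9% and 11% of all tested genes), and 22 lay below 0, with a median of -0.83. Vgf, a neuropeptide precursor gene, fell to -1.72 (SE 0.41, adjusted p = 4.21e-04) in the authors' deposited table. Nptx2, the gene of a secreted pentraxin that gathers AMPA receptors, fell to -1.93 (SE 0.50) and Timp1 to -2.39 (SE 0.62) at a mean of 17.8. Gap43, a growth cone gene, rose to 0.33 (SE 0.09) in the authors' deposited table, and the other riser was Gria2, an AMPA receptor subunit gene, at 0.39 (SE 0.11), named after its value was seen. Many genes of the list answer to CREB and other factors too, and the list was drawn up with earlier results of these data known. When p was adjusted only over genes averaging 50 or more normalized counts, 8 fell, where 14.9% of genes were called lower. These 8 are not a share of the 28, because targets below that level drop out of the list. Timp1, Ccl2, Mmp10, Plaur and Lgals3, all among the 12, drop out in this way. The 8 include Gadd45b, which was not among the 12 (adjusted p = 0.0636 by DESeq2's Wald test in the authors' deposited table).

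Of 23 other immediate early genes tested, 3 fell and 2 rose, with a median of -0.16, and 14 lay below 0. The shares called, 13.0% lower and 8.70% higher, were close to the 10.9% and 11% of all tested genes. Csrnp1 fell to -1.12 (SE 0.37, adjusted p = 0.015), Gadd45g to -0.60 (SE 0.22, adjusted p = 0.0287) and Maff, a small Maf gene that is also a bZIP partner, to -1.35 (SE 0.50, adjusted p = 0.0357), per the authors' deposited table. Myc, at 0.59 (SE 0.17), and Egr3, at 0.95 (SE 0.37, adjusted p = 0.0429), rose there. The list shared the low precision of the AP-1 members, with a median SE 2.02 times that of genes of like count. For the MAP kinase cascade the same figure was 0.90.

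**Figure D4:**
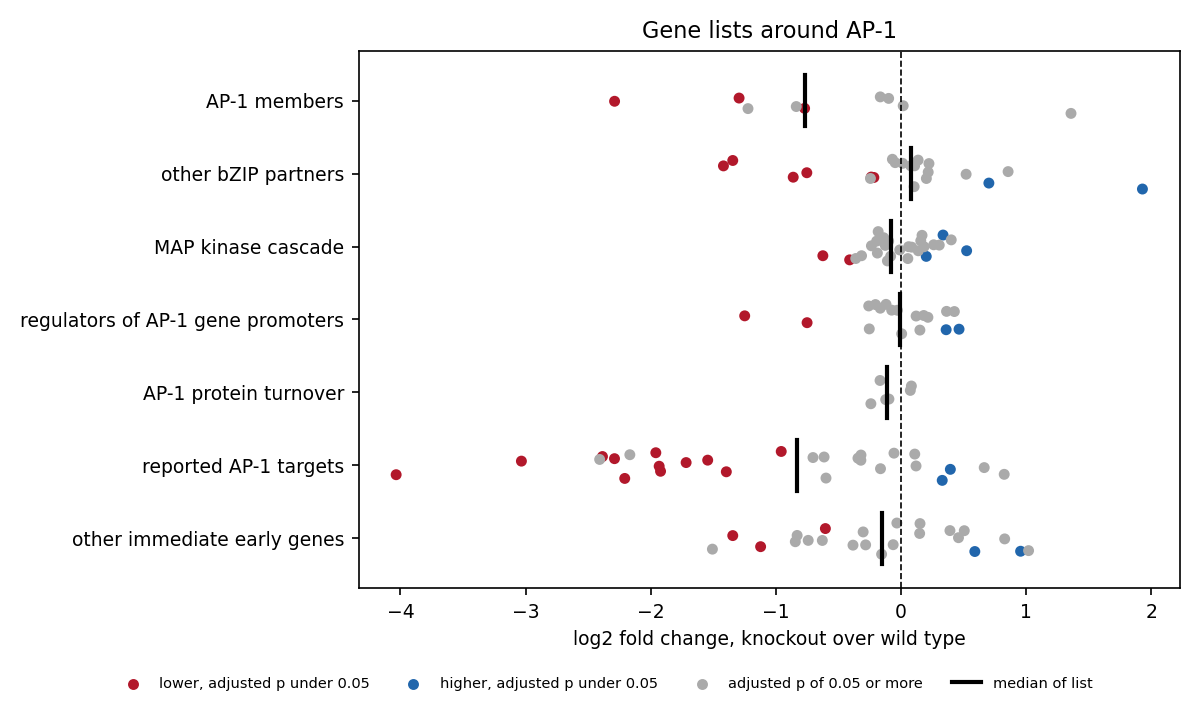
Log2 fold change, knockout over wild type, of each tested gene in the AP-1 family and in 6 related lists, with red points called lower, blue points called higher, grey points not called and a black bar at the median. The AP-1 members and the reported targets have medians of -0.77 and -0.83, whereas the MAP kinase and promoter-regulator lists centre near 0 at -0.08 and -0.01.

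Markers of several cell types moved alongside. For comparison, 10.9% of all tested genes were called lower and 11% higher. Markers of projection neurons and interneurons were both present, with mean normalized counts from 575 to 10466 over 12 projection neuron markers and from 10.3 to 38446 over 14 interneuron markers. Of the projection neuron markers, 7 rose and 2 fell (58.3% and 16.7%). Their summed implied level in the knockout was 150% of wild type (61499 against 41120 normalized counts). Of the interneuron markers, 6 fell (42.9%), and the sum over the list was 59.7% of wild type (88902 against 148831). Microglial markers fell in 7 of 14 cases (50%) and summed to 610 against 1418 normalized counts. The microglia-defining P2ry12 and Tmem119 had means of 1.52 and 1.02 and were not tested. Mural markers fell in 3 of 8 cases (37.5%) with a sum 61.2% of wild type. Astrocyte markers rose in 3 of 11 (27.3%) with a sum 187% of wild type. Endothelial markers gave 1 fall of 6 (16.7%). Fibroblast and meningeal markers gave 2 rises and 2 falls of 11, or 18.2% each way. In lists this short, the last 2 results are not far from the shares of all tested genes. The part of these shifts in the levels of Fosb, Atf3, Fosl2 and the reported targets was not tested.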

How the data were processed

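RNA of 8 libraries, 4 per genotype, was prepared with a stranded kit from polyadenylated RNA, per the labels, which call them biological replicates. Reads were mapped to mm10 and compared with DESeq2, per the submitters' processing notes, which also list DESeq. Aligner, counter and gene models were not given in the sources used here. The deposited signal is the mean over libraries of size-factor-scaled counts, and the deposited log2 fold change comes with its standard error. The deposited score is a Wald statistic, checked to be their ratio. The deposited p-value and adjusted p-value were checked to be its two-sided normal p and the Benjamini-Hochberg adjustment of it. The mean counts summed to 3.96e+07, and depth per library was not analysed here. Of 26229 genes, 18085 had an adjusted p.

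Signs were set by H2bc21. Group levels follow from mean and fold change with equal group sizes, and 95% intervals are normal. Lengths and positions are from GENCODE M21 (GRCm38). Genes were called at an adjusted p under 0.05. All members are named, and in each list up to 6 called genes with the smallest adjusted p, or the 2 of highest count if none was called. Some genes that this rule names are not reported here. Members and lists were chosen with earlier results of these data known. Calculations used statsmodels 0.14.6, pandas 2.3.3, scipy 1.17.1 and numpy 2.4.6 under Python 3.11.15, and were tested on simulated data. For the implied levels and coefficients of variation, that test checks the arithmetic only and not how well they describe these libraries.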

Additional observations from a re-analysis of the deposited data

How the results depend on the processing

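The 3 lower AP-1 members stayed at 3 when p was adjusted over all genes with a p, over genes whose mean normalized count was 50 or more, and after centring on the median fold change. Fosl2 passed narrowly in the first and last of these, at an adjusted Wald p of 0.0494 and 0.0416. Batf3 was left out of the setting with a mean of 50 or more. At a threshold of 0.01 the count was 2, without Fosl2. Under the t distribution (6 degrees of freedom) the members called, in either direction and lower, were 0 and 0, with adjusted p of 0.108 for Fosb, 0.116 for Atf3 and 0.18 for Fosl2. With the widened null they were also 0 and 0, with adjusted p of 0.641, 0.683 and 0.874. Over all genes these settings left 1 call, H2bc21, and 84 calls, of which 25 were lower and 59 higher, against 1967 and 1981. No member was called higher under any of the 6 alternatives. All 6 related lists gave 0 calls under both nulls. At a threshold of 0.01 the reported targets gave 7 lower against 12, the bZIP partners 3 against 6, the MAP kinase genes 0 lower and 1 higher against 2 and 3, the promoter regulators 1 higher against 2, and the other immediate early genes 0 lower and 1 higher against 3 and 2. After centring, MAP kinase genes gave 1 lower against 2 and the bZIP partners 4 lower against 6. Without the filter on low counts, MAP kinase genes gave 1 lower and 1 higher against 2 and 3. In that setting the bZIP partners gave 4 lower against 6 and the reported targets 10 against 12. The other immediate early genes gave 2 lower and 1 higher there, against 3 and 2. Over genes averaging 50 or more, the reported targets gave 8 lower against 12 and the other immediate early genes 4 against 3. No paired analysis was possible because the table holds a comparison and no values of single libraries, and leaving out replicates was not run for the same reason. Low counts limit Batf3.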

Other observations

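Genes around the members were called about as often as genes elsewhere. Within 200 kb of the 9 members, 126 other tested genes gave 11 rises and 17 falls, or 22.2%, against 21.8% of all tested genes. The 2 tested neighbours of Fosl2, Babam2 at a log2 fold change of -0.30 with an SE of 0.08 ( adjusted p = 0.00335) and Plb1 at -0.85 (SE 0.29, adjusted p = 0.0198), were both lower in the authors' deposited table. Between Atf3 and Batf3 and their flanks, Vash2, an angiogenesis and tubulin-processing gene, rose to 1.36 (SE 0.19, adjusted p = 2.31e-10), and Ppp2r5a, a phosphatase subunit gene, fell to -0.57 (SE 0.17, adjusted p = 0.00513), in the authors' deposited table. None of the 5 tested neighbours of Jun was called. These neighbours were chosen after their values were seen.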
